A study of Mus musculus with 5 samples.

Results

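Pericytes are the mural cells that wrap capillaries inside the basement membrane, where they steady the vessel wall and exchange signals with the endothelium. Platelet-derived growth factor B from endothelial cells draws them to new vessels through the receptor PDGFRβ, and in the postnatal lung they accompany the capillaries that fold into the growing alveolar septa. The expression of 7 genes widely used as pericyte markers, Cspg4, Rgs5, Mcam, Abcc9, Higd1b, Ndufa4l2 and Vtn, was examined in Igf1r-deleted and control lung cells. The genes were chosen by symbol from the 23478 rows of the count table, and all 7 passed the filter on low counts that left 15298 genes for testing.

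The samples were Rosa-EGFP+ cells sorted from lungs on P6, after 100 µg of tamoxifen per pup on P0 and on P1. Both groups carried Gli1-CreERT2 and the Rosa26-eGFP reporter. Control mice (2 libraries) had 1 floxed and 1 wild-type Igf1r allele, and Igf1r-deleted mice (3 libraries) had 2 floxed alleles. Gli1-CreERT2 is active in Gli1-expressing mesenchyme and the sort used the reporter, not a pericyte marker, so the sort was meant to keep pericytes only where they or their progenitors had recombined. By the staining in the study, pericytes recombined rarely, as counted in 2 mice at a later age than that of these libraries. The study also reports that few smooth muscle cells of airways and vessels were targeted. The reporter was not found in epithelial, endothelial or hematopoietic cells, yet markers of all 3 of these cell types were detected in every library. The mice were of mixed background and of both sexes, and the sources used here do not give the sex, litter or number of pups behind a library, so p-values measure the spread between these libraries.

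Libraries held 35116766 to 37597857 counts. Levels are CPM, the counts of a gene per 1000000 counts of its library after TMM correction for composition. They are listed for control replicates 1 and 2 and then for Igf1r-deleted replicates 1, 2 and 3, and fold changes are Igf1r-deleted against control on the log2 scale. Igf1r itself, on chromosome 7 of mm10 from 67952827 to 68233668, stood at 324 CPM in both control libraries and at 139.7, 177 and 194 CPM after deletion, with no overlap (log2 fold change −0.93 ± 0.14, SE, edgeR, Benjamini-Hochberg adjusted p = 0.354, against 1.11e-05 in DESeq2's Wald test). The cells were labelled fibroblasts, and the 18 fibroblast markers summed to 67480 and 68880 CPM in control cells and to 52414 to 67285 CPM after deletion. The 7 pericyte markers summed to 243 and 248 CPM and to 174 to 231 CPM. Abcc9 (mean over the libraries 86.8 CPM) and Mcam (67.6 CPM) were the largest parts of the pericyte sum. The 2 sums cover lists of unlike size and are not scaled by gene length.

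Per kilobase of exon, the scale on which genes can be compared, Mcam had the highest level of the pericyte markers and Vtn the lowest. Mcam had a mean level of 20.2 CPM per kb (range over the 5 libraries 14.5 to 27.9), Abcc9 of 10.4 (7.39 to 13.9), Ndufa4l2 of 7.88 (6.18 to 9.32), Rgs5 of 3.91 (3.39 to 4.74), Cspg4 of 3.54 (3.01 to 3.997), Higd1b of 2.16 (0.821 to 3.12) and Vtn of 0.325 (0.184 to 0.659). The ranges of Abcc9 and Ndufa4l2 overlapped, as did those of Rgs5 and Cspg4 and those of Cspg4 and Higd1b, so these neighbors were not separated. Among the 14483 tested genes with an exon length, Mcam stood at the 85.4th percentile of level per kb, Abcc9 at the 72.9th, Cspg4 at the 47.6th and Vtn at the 12.7th. Of other mural cell genes, Pdgfrb, the gene of PDGFRβ, had 32.7 CPM per kb (28.7 to 38.9), Kcnj8 33.0 (25.8 to 40.1) and Notch3 21.1 (15.9 to 25.2). The range of Pdgfrb lay above that of Mcam, and those of Kcnj8 and Notch3 overlapped it. Mean levels of the tested genes in the full list of other mural cell genes ran from 0.405 CPM per kb for Foxd1 to 470 for Enpep. Enpep, Sparcl1 (425), Tbx2 (392), Cd248 (174), Ednra (121) and Postn (62.7) stood above Pdgfra, a gene of fibroblasts (55.6), and the others below it. The part of fibroblasts in the values of this list was not tested. With coding length in place of exon length, Ndufa4l2 came first (33.1 CPM per kb) and Mcam was the third (30.9), and Vtn stayed the lowest (0.459).

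**Figure D1:**
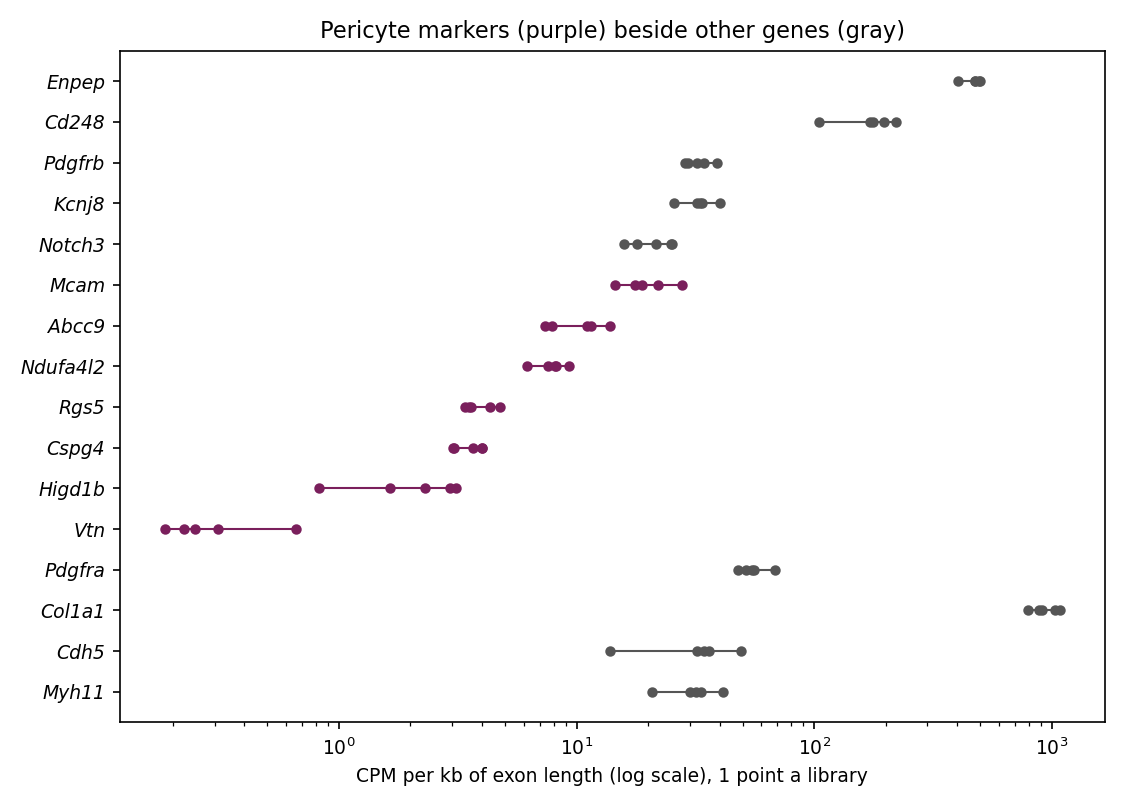
CPM per kb of exon length (log scale) in each of the 5 libraries (points; lines join the lowest and highest) for the 7 pericyte markers in purple and for other genes in gray. The markers run from 0.184 (Vtn, lowest library) to 27.9 (Mcam, highest library), and all lie below Pdgfra and Col1a1, genes of fibroblasts.

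No pericyte marker passed the test between the genotypes. After Benjamini-Hochberg adjustment in edgeR, 0 of the 7 had a p under 0.05, as did 0.00% of all tested genes. DESeq2's Wald test and limma voom also called 0 of the 7, where DESeq2 called 1.30% of all tested genes and left Vtn and Higd1b without an adjusted p. An unadjusted p under 0.05 was found for 2 of the 7, Rgs5 and Abcc9, both lower in Igf1r-deleted cells, where 12.4% of all tested genes had one in either direction and 6.75% in that direction. The genotypes did not overlap for 1 of the 7, Rgs5, against 31.0% of all tested genes. The log2 fold change was negative for 5 markers and positive for 2, against 47.7% and 52.3% of all tested genes, with a median of −0.37 beside 0.015 over all tested genes. The counts changed with the libraries kept, for the markers and for all tested genes. Without Igf1r-deleted replicate 2 or 3 only Rgs5 had an unadjusted p under 0.05. In these fits 993 of 15100 and 1113 of 15153 tested genes had one, against 1897 of 15298 with all libraries. Without control replicate 1 the log2 fold changes of Rgs5 and Abcc9 were −0.30 and −0.31. The 2 positive log2 fold changes, of Mcam and Cspg4, turned negative without control replicate 1 or without Igf1r-deleted replicate 2. The log2 fold change of Vtn turned positive (0.48) without control replicate 2. With Xist as a covariate for sex, the markers with an unadjusted p under 0.05 were Abcc9 and Mcam, the latter higher in Igf1r-deleted cells. In sorted bulk samples, fewer cells of a type and less RNA per cell cannot be told apart.

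**Figure D2:**
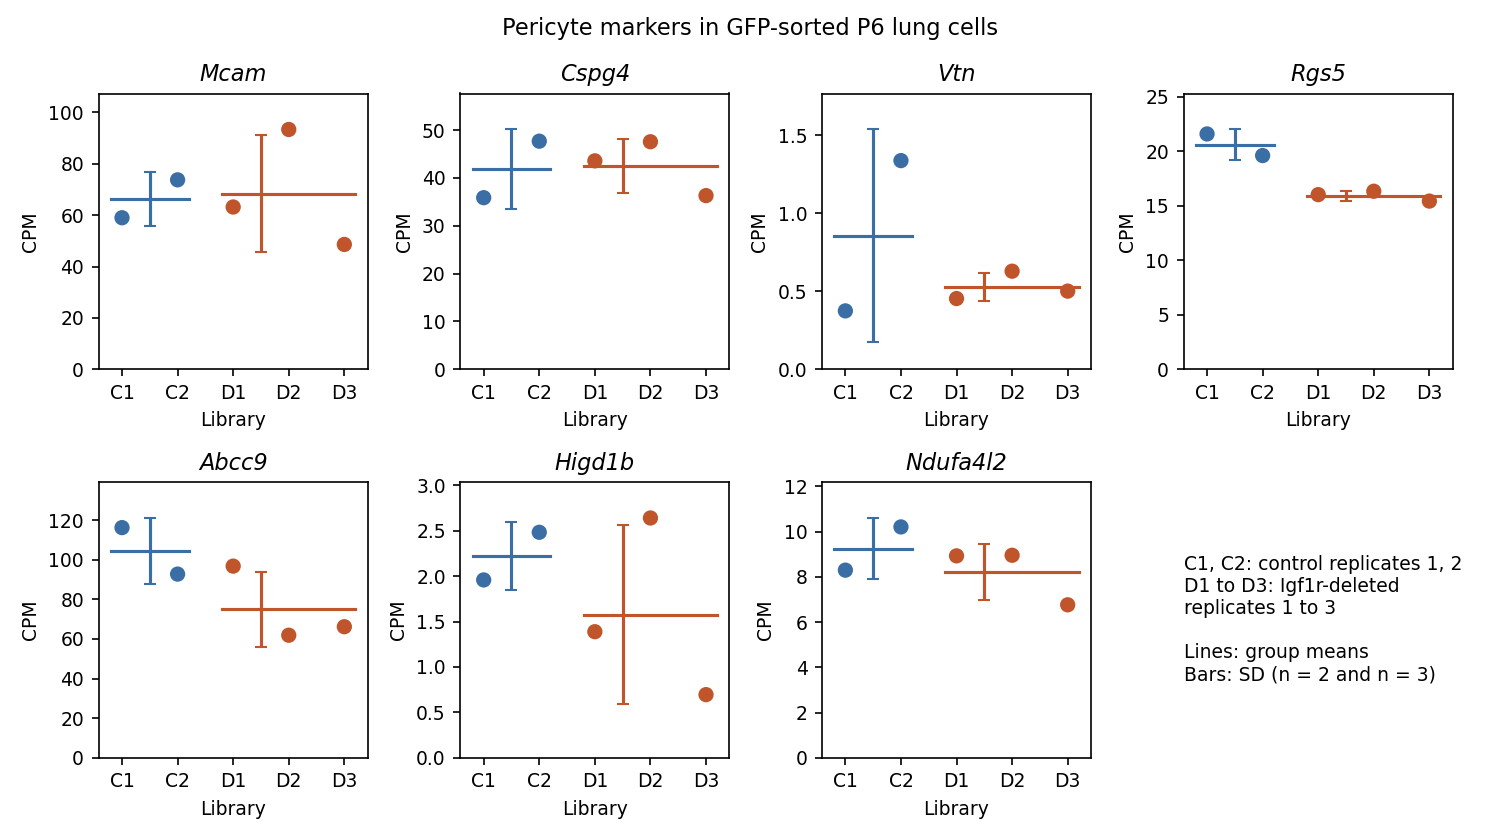
CPM of each pericyte marker in the 5 libraries (C1 and C2, control replicates 1 and 2; D1 to D3, Igf1r-deleted replicates 1 to 3), with group means as lines and SD as bars (n = 2 and n = 3). Rgs5 is the only marker whose 3 Igf1r-deleted values (15.4 to 16.3 CPM) all lie below both controls (19.6 and 21.6 CPM).

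Group means with SD (n = 2 control and n = 3 Igf1r-deleted libraries) were 20.6 ± 1.40 and 15.9 ± 0.459 CPM for Rgs5, and 104 ± 16.6 and 74.9 ± 19.0 CPM for Abcc9. They were 66.4 ± 10.4 and 68.4 ± 22.8 CPM for Mcam, and 41.8 ± 8.35 and 42.5 ± 5.71 CPM for Cspg4. For the less abundant markers they were 9.25 ± 1.35 and 8.21 ± 1.26 CPM for Ndufa4l2, 2.22 ± 0.371 and 1.57 ± 0.986 CPM for Higd1b, and 0.856 ± 0.681 and 0.528 ± 0.0907 CPM for Vtn. The SD after deletion was smallest against its mean for Rgs5 and largest for Higd1b.

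Rgs5 (mm10, chromosome 1, 169655501 to 169695813, plus strand) encodes a regulator of G protein signaling that speeds GTP hydrolysis by Gα subunits and so damps their signaling, and its mRNA is among the most used marks of pericytes. Measured levels were 21.6 and 19.6 CPM in control cells and 16.01, 16.3 and 15.4 CPM after deletion. The Igf1r-deleted libraries lay within 0.082 of each other on the log2 scale and below both controls. On the log2 scale the fold change was −0.37 (95% interval −0.64 to −0.10, edgeR, unadjusted p = 0.0138, Benjamini-Hochberg adjusted p = 0.354), and the adjusted p ran from 0.152 to 0.445 over the 10 alternatives of the processing. Leaving out single libraries gave log2 values of −0.45 to −0.30. The ratio of the group means was 0.773.

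Rgs5 belongs to the R4 family of small regulators, of which 8 genes were tested. With Rgs5, 3 of the 8 had an unadjusted p under 0.05, all lower in Igf1r-deleted libraries (6.75% of all tested genes) and none past the adjusted threshold. Rgs2, a regulator with preference for Gαq, had 608 and 466 CPM in control cells and 363, 349.5 and 429 CPM after deletion, all below both controls (log2 fold change −0.50 ± 0.15, SE). Rgs1, a gene of leukocytes, had 3.54 and 2.73 CPM in control cells and 1.39, 0.503 and 0.779 CPM after deletion (log2 fold change −1.82 ± 0.45, SE). All 12 hematopoietic markers had a negative log2 fold change, against 47.7% of all tested genes, with a median of −0.68. An unadjusted p under 0.05 was found for 3 of the 12, all lower, against 6.75% of all tested genes. The part of hematopoietic cells in the value of Rgs1 was not tested. Rgs3, Rgs4, Rgs8, Rgs16 and Rgs18 had log2 fold changes between −0.14 and 0.089, with overlap between the genotypes. Rgs4, also found in pericytes, had 8.15 and 7.04 CPM in control cells and 6.83, 7.47 and 7.82 CPM after deletion.

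Abcc9 (mm10, chromosome 6, 142587862 to 142702315, minus strand) encodes SUR2, the regulatory subunit of the ATP-sensitive potassium channel of pericytes and vascular smooth muscle. Measured levels were 116 and 92.7 CPM in control cells and 96.8, 61.9 and 66.2 CPM after deletion. Igf1r-deleted replicate 1 lay between the controls and the other 2 lay below them. The log2 fold change of −0.48 (95% interval −0.96 to −0.00083) had an unadjusted p = 0.0497 and a Benjamini-Hochberg adjusted p = 0.401 in edgeR (0.183 to 0.416 over the 10 alternatives of the processing). Left out in turn, control replicate 1 gave −0.31 and Igf1r-deleted replicate 1 gave −0.71, with unadjusted p-values of 0.246 and 0.00160 in edgeR. Of the 30-base sequences of its transcripts, 3.26% also occur in transcripts of other genes, and 1.89% of its exon length overlaps 5330439B14Rik on the opposite strand.

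Kcnj8, on the same chromosome, encodes Kir6.1, the pore subunit that works with SUR2. It had 102 and 65.8 CPM in control cells and 84.7, 86.2 and 81.8 CPM after deletion, all between the controls. The log2 fold change was 0.0052 (95% interval −0.41 to 0.42), and its sign changed with the scaling. The other channel genes of this kind, Abcc8 and Kcnj11, had too few counts for testing.

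The stretch upstream of Rgs5 and of Abcc9 is shown because these were the markers with the lowest p-values. Sequences are from RefSeq (GRCm38.p6, the assembly behind mm10), and 5 of the 7 markers had an entry. The window ran from 250 bases before to 50 bases after the start of the gene, and the part before the annotated start is printed, 5′ to 3′ on the strand of the gene, with a match to TGGGAA (the core bound by RBPJ, the nuclear partner of Notch) in capitals. Rgs5 is chr1:169655251-169655500 on the plus strand (250 bases, 53.6% GC, 4 CpG), and Abcc9 is chr6:142702316-142702524 on the minus strand (209 bases, 68.4% GC, 10 CpG).
Rgs5: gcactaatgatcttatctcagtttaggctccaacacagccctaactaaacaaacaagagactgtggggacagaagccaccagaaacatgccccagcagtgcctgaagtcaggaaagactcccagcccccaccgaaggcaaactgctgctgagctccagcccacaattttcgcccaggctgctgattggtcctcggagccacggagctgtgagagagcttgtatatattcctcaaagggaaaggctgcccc
Abcc9: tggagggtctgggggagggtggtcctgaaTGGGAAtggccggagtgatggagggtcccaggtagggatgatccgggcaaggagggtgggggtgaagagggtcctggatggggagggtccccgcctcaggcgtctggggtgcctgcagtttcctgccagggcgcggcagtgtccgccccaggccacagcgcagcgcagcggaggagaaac
On both strands of the windows, TGGGAA was present in 2 of the 5 markers (Abcc9 and Vtn), against 25.6% of 32851 promoters. ACGTG (the core bound by hypoxia-inducible factors, 19.6% of all promoters), GTAAACA (bound by FOXO factors, 3.65%) and the CArG box of serum response factor (1.63%) were in 0 of the 5. A match describes these letters only.

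Mcam (mm10, chromosome 9, 44134469 to 44142727, plus strand) encodes CD146, an adhesion molecule of the immunoglobulin family that is found on pericytes, smooth muscle and endothelium. Measured levels were 59.0 and 73.7 CPM in control cells and 63.2, 93.3 and 48.6 CPM after deletion. The Igf1r-deleted libraries held both the highest and the lowest value, 0.94 apart on the log2 scale, and enclosed both controls. The log2 fold change was 0.043 (95% interval −0.56 to 0.65, edgeR, Benjamini-Hochberg adjusted p = 0.954, 0.436 to 0.999 over the 10 alternatives), and it changed sign with the library left out (−0.25 without Igf1r-deleted replicate 2, 0.23 without Igf1r-deleted replicate 3).

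Cspg4 (mm10, chromosome 9, 56865033 to 56899870, plus strand) encodes NG2, a transmembrane chondroitin sulfate proteoglycan that marks mural cells but also glial progenitors and some other mesenchyme. Measured levels were 35.9 and 47.7 CPM in control cells and 43.6, 47.6 and 36.3 CPM after deletion. All 3 Igf1r-deleted libraries lay between the controls. Its log2 fold change was 0.024 with a 95% interval of −0.36 to 0.41 (−0.17 without control replicate 1, −0.070 without Igf1r-deleted replicate 2).

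Vtn (mm10, chromosome 11, 78499091 to 78502324, plus strand) encodes vitronectin, an adhesive glycoprotein of plasma and matrix that is made mainly by the liver and also by pericytes. It was the least abundant of the markers, with 13 and 49 counts in control cells and 16, 25 and 18 after deletion. This gave 0.374 CPM (exact Poisson 95% interval 0.199 to 0.640) and 1.34 CPM (0.989 to 1.77) in the controls, so that the controls differed from each other by more than counting error. Such intervals cover counting error only. The Igf1r-deleted libraries, at 0.453, 0.629 and 0.501 CPM, lay between them. The log2 fold change of −0.70 (95% interval −2.11 to 0.72) became −1.34 when control replicate 1 was left out and 0.48 when control replicate 2 was, so its sign was set by which control was kept.

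Per kilobase of exon, the integrin genes of vitronectin receptors were more abundant than Vtn, with means of 19.8 CPM per kb for Itgav, 64.97 for Itgb5 and 7.93 for Itgb3. In CPM, Itgav, the αv chain, had 219 and 216 CPM in control cells and 228, 201 and 201 CPM after deletion, and Itgb5, the β5 chain, had 213 and 232 CPM against 233, 223 and 253 CPM. Itgb3, the β3 chain, had 21.9 and 57.5 CPM in control cells and 47.8, 49.3 and 57.3 CPM after deletion, so control replicate 1 was low. The genotypes overlapped for each of these 3 genes. Of the 11 tested genes of vitronectin receptors and partners, 1 had an unadjusted p under 0.05 (12.4% of all tested genes), and the median log2 fold change was −0.048.

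Higd1b (mm10, chromosome 11, 102835849 to 102838040, plus strand) encodes a mitochondrial protein of the hypoxia-induced gene family and is used as a mark of lung pericytes. There were 68 and 91 counts in control cells and 49, 105 and 25 after deletion, or 1.96 and 2.48 CPM against 1.39, 2.64 and 0.696 CPM. As for Mcam, the highest and the lowest library were Igf1r-deleted replicates 2 and 3, here 3.80-fold apart, and their exact Poisson 95% intervals (2.16 to 3.20 and 0.450 to 1.03 CPM) did not meet. The log2 fold change of −0.49 (95% interval −1.72 to 0.74, edgeR, Benjamini-Hochberg adjusted p = 0.714) was −1.09 without Igf1r-deleted replicate 2 and −0.14 without Igf1r-deleted replicate 3.

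Ndufa4l2 (mm10, chromosome 10, 127514967 to 127517154, plus strand) encodes a relative of the respiratory chain subunit NDUFA4, is induced by hypoxia-inducible factor and lowers mitochondrial oxygen use. Measured levels were 8.29 and 10.2 CPM in control cells and 8.93, 8.95 and 6.76 CPM after deletion. Igf1r-deleted replicate 3 lay below both controls and the other 2 lay between them. For Ndufa4l2 the log2 fold change was −0.17 (95% interval −0.63 to 0.29), and 2.92% of its exon length overlaps Shmt2 on the opposite strand. Without single libraries it ran from −0.32 to −0.024.

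The widely expressed relatives of these genes were measured beside them. Ndufa4 had 19.8 and 18.6 CPM in control cells and 16.4, 16.4 and 17.5 CPM after deletion, all below both controls (log2 fold change −0.19 ± 0.11, SE). Cox4i1, a subunit of cytochrome c oxidase, had 187 and 174 CPM in control cells and 156, 132 and 132 CPM after deletion (log2 fold change −0.36 ± 0.11, SE, edgeR, unadjusted p = 0.0135, Benjamini-Hochberg adjusted p = 0.354). Cox4i2, the form of that subunit found in pericytes, had 1.81 and 3.19 CPM in control cells and 1.70, 5.41 and 2.42 CPM after deletion, with overlap between the genotypes. Of the other tested genes of this group, Higd1a, Higd2a, Cox7a1 and Cox7a2 had log2 fold changes from −0.61 to −0.16, none with an unadjusted p under 0.05. Higd1c had 0 counts in every library.

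Of 26 other mural cell and pericyte genes, listed from general knowledge, 25 were tested, of which 15 had negative and 10 positive log2 fold changes, with a median of −0.043. With edgeR's quasi-likelihood test 0 of the 25 had an adjusted p under 0.05, as with DESeq2's Wald test and limma voom. An unadjusted p under 0.05 was found for 5, of which 3 were higher (Gucy1b3, Heyl and Cd248) and 2 lower (S1pr3 and Foxd1), beside 5.65% and 6.75% of all tested genes. The genotypes did not overlap for 7 of the 25, against 31.0% of all tested genes. The number of the 25 with an unadjusted p under 0.05 was 1 without Igf1r-deleted replicate 2, 3 without replicate 3 and 9 without replicate 1. Over all tested genes the numbers in these fits were 993 of 15100, 1113 of 15153 and 3183 of 15138.

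Pdgfrb, whose protein the study stained to mark pericytes, had 157 and 176 CPM in control cells and 162, 213 and 188 CPM after deletion. The genotypes overlapped, and the log2 fold change was 0.17 (95% interval −0.15 to 0.49). Notch3, the Notch receptor of mural cells, had 128 and 203 CPM in control cells and 201, 174 and 145 CPM after deletion, all between the controls. Anpep, an aminopeptidase of brain pericytes, had 28.9 and 34.6 CPM in control cells and 34.9, 25.5 and 27.7 CPM after deletion. None of these genes was separated by genotype.

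Gucy1a3 and Gucy1b3 encode the α1 and β1 subunits of soluble guanylate cyclase, the nitric oxide receptor of mural cells. Gucy1b3 had 35.7 and 52.2 CPM in control cells and 63.9, 69.3 and 55.3 CPM after deletion, all above both controls (log2 fold change 0.52 ± 0.18, SE, edgeR, unadjusted p = 0.0224, Benjamini-Hochberg adjusted p = 0.357). Gucy1a3 had 113 and 216 CPM against 198, 279 and 236 CPM, with the first Igf1r-deleted value under the higher control. The log2 fold changes dropped to 0.26 for Gucy1b3 and 0.13 for Gucy1a3 in a fit lacking control replicate 1.

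The largest differences of the list ran in both directions. Beside Gucy1a3, the largest positive log2 fold changes were those of P2ry14, a receptor for UDP-glucose, with 111 and 182 CPM against 159, 275 and 260.1 CPM, and Cd248, the stromal glycoprotein endosialin, with 272 and 447 CPM against 460.3, 575 and 513 CPM. The largest negative ones were those of Foxd1, a transcription factor of pericyte progenitors, with 2.85 and 2.76 CPM against 1.62, 1.38 and 1.64 CPM, and S1pr3, a receptor for sphingosine 1-phosphate, with 291 and 223 CPM against 211, 127 and 117 CPM. Steap4, a metalloreductase also with a negative value, had 85.3 and 51.9 CPM against 68.4, 31.4 and 33.1 CPM. Cd248, Foxd1 and S1pr3 were separated by genotype, P2ry14 and Steap4 were not, and none had an adjusted p under 0.05.

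**Figure D3:**
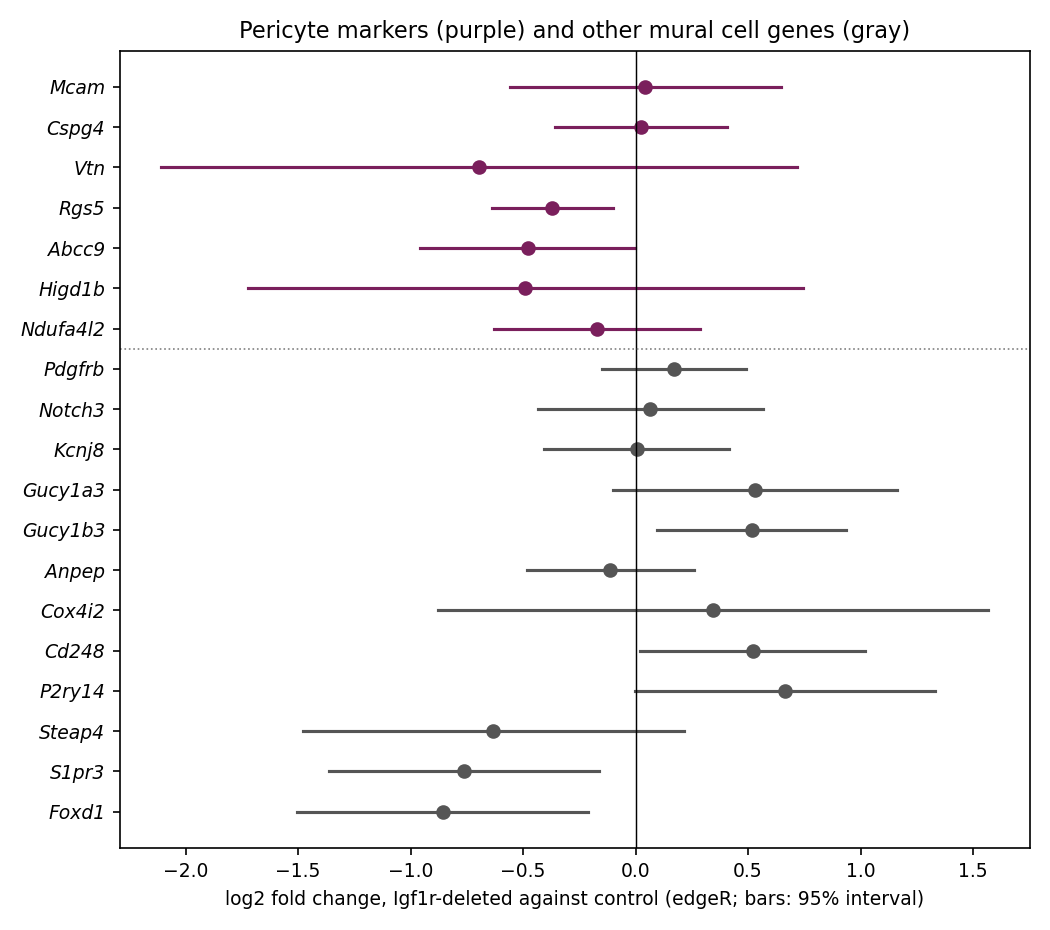
Log2 fold change of Igf1r-deleted against control with its 95% interval (edgeR) for the 7 pericyte markers in purple and 12 other mural cell genes in gray. Among the markers the interval lies below 0 for Rgs5 and reaches −0.00083 for Abcc9, and among the other genes intervals lie on both sides of 0.

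Genes of the signals between endothelium and pericytes were read in the same way. Of 24 such genes, 4 had an unadjusted p under 0.05, 2 of them higher and 2 lower after deletion (5.65% and 6.75% of all tested genes), and the median of the log2 fold changes was −0.076. Pdgfrb, Angpt1, Notch3, S1pr3 and Ednra were also in the list of other mural cell genes. S1pr3, 1 of the 2 lower genes, was thus counted in both lists. Pdgfb, the ligand that recruits pericytes, had 20.1 and 21.4 CPM in control cells and 19.8, 35.2 and 10.96 CPM after deletion. Its highest and lowest libraries were again Igf1r-deleted replicates 2 and 3. Angpt1, the mural ligand of the endothelial receptor TIE2, had 229.5 and 208.1 CPM in control cells and 208.4, 147 and 153 CPM after deletion (log2 fold change −0.37 ± 0.16, SE). Angpt2, which can oppose it, had 20.8 and 18.8 CPM against 17.3, 26.4 and 29.5 CPM, and Tek, the gene of TIE2, had 50.5 and 47.8 CPM against 41.5, 49.4 and 33.0 CPM. The genotypes overlapped for each of these 4 genes.

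The order of the libraries seen for Mcam and Higd1b, with Igf1r-deleted replicate 2 highest and Igf1r-deleted replicate 3 lowest, was also that of endothelial markers. This pattern was looked for after the values were seen. It was present in 2 of the 7 pericyte markers, in 2 of the 25 other mural cell genes in 13 of 15 endothelial markers, in 5 of 12 epithelial markers and in 0 of 16 smooth muscle markers, against 3.33% of all tested genes. The 15 endothelial markers summed to 889 and 877 CPM in control cells and to 800.2, 1149.7 and 403 CPM after deletion. All 15 were tested and none was at 0. Cdh5, the cadherin of endothelial junctions, had 152 and 144 CPM in control cells and 135, 206 and 58.4 CPM after deletion, Cd93, a lectin-like endothelial receptor, had 146 and 156 CPM against 132, 165 and 65.1 CPM, and Ptprb, a phosphatase of endothelial receptors, had 90.1 and 87.9 CPM against 67.7, 96.5 and 33.5 CPM. In log2 CPM centered on each gene's mean over the libraries, the root mean square difference from the mean of the endothelial markers was 0.25 for Mcam and 0.27 for Higd1b, and 0.35 to 0.68 for the other 5 markers. From the mean of the smooth muscle markers it was likewise 0.25 for Mcam, so that Mcam was no nearer to the one than to the other, and 0.66 for Higd1b, while Cspg4 was the nearest at 0.12. The reporter sort would be expected to remove endothelial cells, and the part of endothelial RNA in the values of Mcam and Higd1b was not tested.

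**Figure D4:**
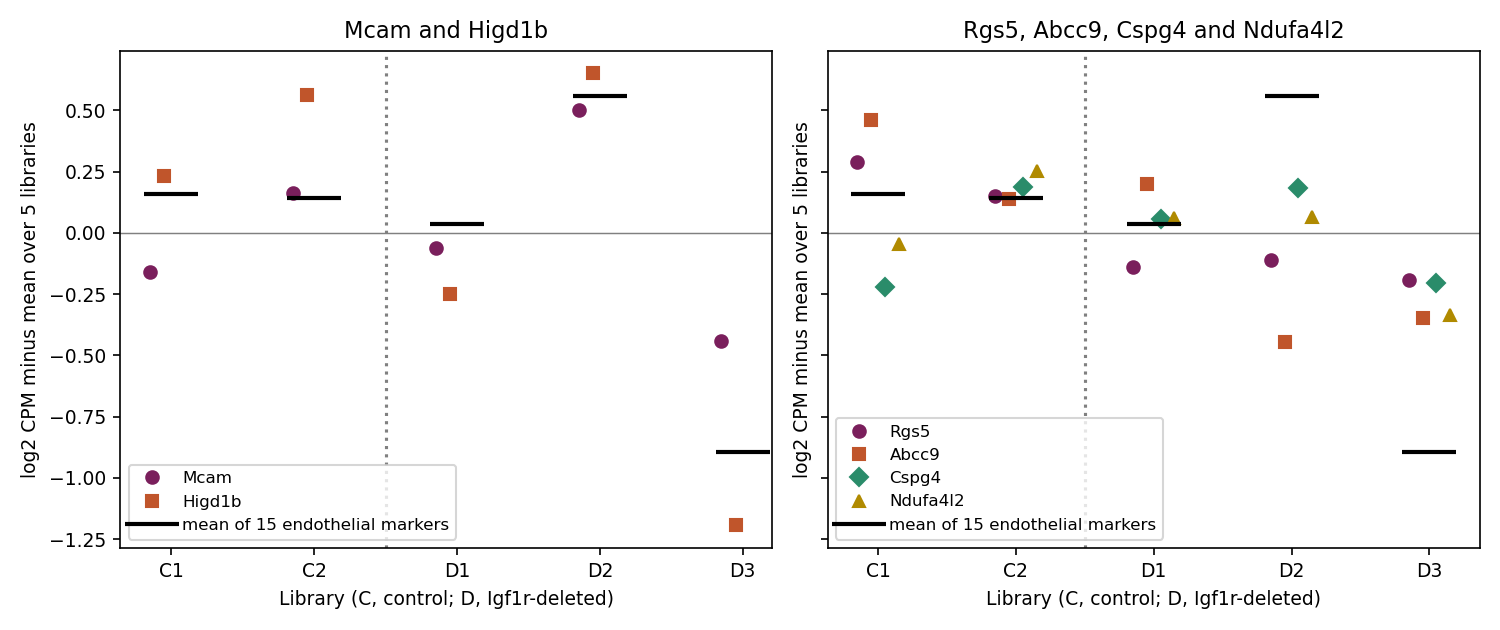
Log2 CPM of 6 pericyte markers minus each gene's mean over the 5 libraries (colored points), with the mean of the 15 endothelial markers on the same scale (black bars); C1 and C2 are control, D1 to D3 Igf1r-deleted replicates. Mcam and Higd1b share the high value of D2 (0.50 and 0.65, endothelial mean 0.56) and the low value of D3 (−0.44 and −1.19, endothelial mean −0.90), and Rgs5 and Abcc9 are below 0 in D2.

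Smooth muscle is the other tissue that shares genes with pericytes. The 16 smooth muscle markers summed to 1199 and 1841 CPM in control cells and to 1938, 2691 and 2229 CPM after deletion, and none was at 0 in all libraries. Of the 16, 13 had a positive log2 fold change, against 52.3% of all tested genes, and 5 had an unadjusted p under 0.05, all higher in Igf1r-deleted libraries, against 5.65%. Acta2, which encodes smooth muscle actin and is also a myofibroblast gene, had 407 and 655 CPM against 764, 1067 and 907 CPM, and Tagln, an actin-binding protein, had 295 and 445 CPM against 449, 660.4 and 557 CPM. Tagln and Mustn1 of this list were also among the myofibroblast markers. Control replicate 1 was the lower control, and without it the log2 fold change went from 0.78 to 0.47 for Acta2 and from 0.59 to 0.32 for Tagln. Casq2, a calcium store protein of muscle, was near its detection floor, with 0.288 and 0.355 CPM against 0.283, 0.101 and 0.0278 CPM. The difference in direction between smooth muscle and pericyte markers was not tested.

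Other cell types were read by their summed markers. Of the 16 myofibroblast markers, 11 had a positive log2 fold change, against 52.3% of all tested genes, with a median of 0.41. An unadjusted p under 0.05 was found for 7, 5 higher and 2 lower after deletion, beside 5.65% and 6.75% of all tested genes. The sum of the 16 markers, 18923 to 23996 CPM in control cells and 17625 to 19981 CPM after deletion, was mostly that of Eln, the elastin gene, named after its values were seen (17351 and 11104 CPM, and 12501, 9150 and 10370 CPM). Epithelial markers (12) summed to 1034 and 1111 CPM and to 504 to 1115 CPM, mesothelial markers (8) to 484 and 486 CPM and to 366 to 496 CPM, and hematopoietic markers (12) to 499 and 699.8 CPM and to 251 to 550.03 CPM. Schwann cell and glial markers (8), of a lineage that also expresses Cspg4, summed to 23.4 and 26.2 CPM and to 20.4 to 21.4 CPM. Cartilage markers (10) were 28.9 and 56.2 CPM in control cells and 19.0 to 55.4 CPM after deletion. Their part in the pericyte markers was not tested.

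The markers differed among themselves in their order over the libraries. Control replicate 2 was the highest library for 3 markers (Cspg4, Ndufa4l2 and Vtn), control replicate 1 for 2 (Rgs5 and Abcc9) and Igf1r-deleted replicate 2 for 2 (Mcam and Higd1b). An Igf1r-deleted replicate 2 or 3 was thus the highest for 2 of the 7, against 43.5% of all tested genes, while Igf1r-deleted replicate 3 was the lowest for 4, against 20.5%. Control replicate 1 was below control replicate 2 for 5 of the 7, all but Rgs5 and Abcc9, against 49.7% of all tested genes. Cspg4 and Ndufa4l2 were the closest pair (root mean square difference 0.12 in centered log2 CPM), and Abcc9 and Vtn the most distant (0.73).

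Among the 9101 tested genes with a mean over 10 CPM, those nearest to each marker on the same measure were named as a description over the 5 libraries. Nearest to Rgs5 were Fas (0.015), Zkscan17 (0.024) and Acbd6 (0.028), and nearest to Abcc9 were Nap1l1 (0.019), Klf6 (0.030) and Eif1a (0.036). Nearest to Mcam were Mmp15 (0.056), Erg (0.080) and Epas1 (0.087), of which Erg was among the endothelial markers. Nearest to Higd1b were Sox18 (0.13), Aplnr (0.14) and Tie1 (0.17), of which Tie1 was among the endothelial markers. Cspg4 had Slc12a7 (0.023), Sdc1 (0.044) and Pcdhga12 (0.049), Ndufa4l2 had Ttc7 (0.060), Emid1 (0.065) and Stx18 (0.068), and Vtn had Syt6 (0.27), Col26a1 (0.38) and H2-Aa (0.39). Nearest to the mean of the 7 markers were Lama3 (0.067), Ano1 (0.074), Npr1 (0.10), Lpcat1 (0.10) and Cadm1 (0.11).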

How the data were processed

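RNA-Seq was analyzed for 5 libraries of GFP-sorted P6 lung cells, grouped by the sample labels. After NEBNext Ultra library preparation, the authors ran Trim Galore and Bowtie2 (mm10), and the deposited table holds raw counts per gene obtained with Bioconductor. Versions, settings, the annotation and the use of strand are not given in the sources used here. Bowtie2 does not splice, so reads that span 2 exons can go uncounted.

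The main test was the two-sided quasi-likelihood F test of edgeR 4.0.16 in R 4.3.3, fitted on genotype alone after filterByExpr and TMM scaling. Adjustment (Benjamini-Hochberg) covered 15298 genes, and a prior count of 2 went into log2 CPM. The test was checked on simulated counts. Alternatives were DESeq2 1.42.0, limma 3.58.1 voom, other scalings and filters, robust empirical Bayes, a replicate block, Xist as a covariate, and leaving out each library. A permutation of 2 and 3 libraries could not give p below 0.1. Within a genotype, pairs of libraries differed 23.2 to 50.7 times more than counting noise allows, and none was a duplicate. TMM factors spanned 0.961 to 1.06, and a count of 0 has an upper limit of 3 counts (0.0754 to 0.0864 CPM).

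GENCODE M21 (mm10) was the source of exon lengths, gene positions, overlapping exons and shared 30-base sequences, and RefSeq (GRCm38.p6) gave promoters, trimmed to bases before both annotated starts. Protein sequences were not used here. The markers and gene lists were chosen with earlier results of these data known. The genes named are the markers, Igf1r, fixed members and the largest changes of the other mural list, fixed members of the signal and vitronectin lists, all tested members of the RGS, channel and mitochondrial lists, the most abundant and most changed endothelial and smooth muscle markers, and the nearest genes. Heyl was named after its values were seen. Other lists are given by sums.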

Additional observations from a re-analysis of the deposited data

How the results depend on the processing

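None of the 7 pericyte markers or the 25 other mural cell genes had an adjusted p under 0.05 under any of the 15 alternatives (DESeq2 gave no adjusted p for some, among them Vtn, Higd1b and Foxd1). Rgs5, Abcc9, Higd1b and Ndufa4l2 kept their direction under all 15. Leaving out single libraries gave log2 fold changes from −0.17 to 0.23 for Cspg4, −0.25 to 0.23 for Mcam, −1.34 to 0.48 for Vtn, −0.26 to 0.012 for Anpep, −0.62 to 0.20 for Cdh5, −0.29 to 0.80 for Cox4i2, −0.36 to 0.024 for Higd1a, −0.17 to 1.22 for Itgb3, −0.29 to 0.35 for Kcnj8, −0.23 to 0.43 for Notch3, −0.44 to 0.40 for Pdgfb, −0.30 to 0.020 for Rgs16, −1.22 to 0.52 for Rgs18, −0.073 to 0.18 for Rgs3 and −0.15 to 0.062 for Rgs4, so these changed sign. A fit without 1 control assumes that the other varies like the Igf1r-deleted libraries. Kcnj8 was −0.0055 with DESeq2's size factors or its Wald test, −0.0020 with at least 10 counts in every library and −0.021 with Xist as a covariate. With library totals in place of TMM, Itgav was 0.023 and Rgs4 0.033. Pdgfb was −0.059 and Rgs18 −0.47 with limma voom, and with Xist as a covariate Rgs18 was −0.97 and Cdh5 0.22. The cause was not tested.

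Igf1r passed the adjusted threshold with DESeq2's Wald test (−0.94), as did Acta2 (adjusted p = 0.0483), and with the replicate block (−1.04, edgeR, adjusted p = 0.0139). With the block, Rgs18 was −0.083 and Cdh5 0.17, 0 of the 7 pericyte markers passed, and the number of all genes called went from 0 to 136. The labels give no meaning to the replicate numbers and only 2 are shared. Deviations from the group means correlated at 0.21 for replicates 1 and 0.12 for replicates 2. With only 2 controls their deviations mirror each other. The swapped pairs were thus fixed at −0.21 (control 2 with Igf1r-deleted 1) and −0.12 (control 1 with Igf1r-deleted 2), so these values cannot decide whether replicates were paired.

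The number of pericyte markers with an unadjusted p under 0.05 was 2, and 1 with library totals, upper-quartile factors or robust empirical Bayes. With Xist as a covariate the 2 were Abcc9 and Mcam, not Rgs5. Among the other mural cell genes the number was 5, but 8 with at least 1 count in any library and 10 with the replicate block or with Xist as a covariate. Over all 15298 tested genes it was 1897, and 2087 with library totals, 1904 with upper-quartile factors and 1871 with robust empirical Bayes. It was 2056 with the replicate block, 1740 with Xist as a covariate, and 2116 of 18645 with at least 1 count in any library. Of all genes, where 0 were called, 45 were called without control replicate 2, 5 without Igf1r-deleted replicate 1 and 4 without Igf1r-deleted replicate 2. DESeq2's Wald test called 199, with 2970 adjusted p-values not given by its filtering. With coding length, 6 of the 7 markers changed rank in level. Vtn and Higd1b are limited by depth, with as few as 13 and 25 counts in a library.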

Other observations

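Pericyte markers touch pathways whose other genes can be read by their counts. Of 18 hypoxia response genes, the setting in which Ndufa4l2 is induced, 2 had an unadjusted p under 0.05, both lower in Igf1r-deleted cells, against 12.4% of all tested genes in either direction. The median of the 18 log2 fold changes was −0.16, and their sum was 978 and 1035 CPM in the controls and 932 to 1021 CPM in the Igf1r-deleted libraries. Of 11 laminin, nidogen, collagen and other partners of CD146 and NG2, 10 had a negative log2 fold change, against 47.7% of all tested genes, with a median of −0.32, beside 0.015 over all tested genes. In edgeR, 2 of the 11 had an unadjusted p under 0.05, both lower, against 6.75% of all tested genes, and 0 had an adjusted p under 0.05. The sum of the 11 was 23398 and 22422 CPM in control replicates 1 and 2. It was 22233, 17624 and 17115 CPM in Igf1r-deleted replicates 1, 2 and 3, so replicate 1 lay near the lower control. The genotypes did not overlap for 5 of the 11, all lower, against 14.9% of all tested genes.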
